A study of Mus musculus with 6 samples.

Results

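Gata3 encodes a zinc-finger transcription factor, and the regions of open chromatin at the gene and within 400 kb of either end of it were followed here in 3 subsets of mouse T helper cells. Members were all peaks of 6 deposited ATAC-seq lists that fell in chr2:9457078-10290034 (mm10), and peaks of different libraries that overlapped by at least 1 bp were joined into 77 regions, of 236017 regions over the genome. Of the 77, 1 lay over the Gata3 promoter, 4 over promoters of other genes, and 72 were distal to any promoter, 48 of them downstream of the Gata3 start and 24 upstream. A promoter was taken as 1000 bp before to 100 bp after a transcript start of the basic GENCODE set. Regions 10.3 kb upstream and 4.9 kb downstream, over Gata3 starts found only in the full set, thus count as distal. Every distance runs from the Gata3 start to the nearest edge of a region. Gata3 is transcribed from the minus strand, so its downstream side holds the smaller coordinates.

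ATAC-seq cuts accessible DNA with a transposase, and a peak marks a stretch where inserted fragments pile up above the library's background. The 3 subsets were Th9, Th2 and Th17 cells, each with 2 libraries that carry the replicate numbers 1 and 3. All came from wild-type C57BL6/J mice, spleen being the labelled tissue, and were grown from naive CD4+ CD62L+ T cells stimulated through CD3 and CD28. Th2 cultures received IL-4, IL-2 and anti-IFNγ, Th9 cultures received the same with TGF-β1, and Th17 cultures received IL-6, TGF-β1, IL-23 and IL-1β with antibodies to IFNγ, IL-4 and IL-2. IL-4 was thus added for Th9 and Th2 and blocked for Th17, while TGF-β1 was shared by Th9 and Th17. The sources do not say whether replicates were separate cultures or animals, so p-values measure only the spread between these libraries. Populations were cultured in bulk, so more cells with an open region and a more open region per cell cannot be told apart.

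GATA3 is known as the factor that directs Th2 differentiation and opens the locus of the Th2 cytokines IL-4, IL-5 and IL-13. Its gene is induced downstream of IL-4 through STAT6, it is needed earlier for T cell development in the thymus, and it is expressed at a lower level in other T cells. A part of its control is known to lie far from the gene, in enhancers active in T and NK cells downstream of the coding region. The neighbours on the upstream side are Taf3, a subunit of the general factor TFIID, Atp5c1, a subunit of the mitochondrial ATP synthase, Kin, a DNA-binding protein, and the secreted inter-alpha-trypsin inhibitor chains Itih2 and Itih5. The downstream side held no gene of the basic set with a promoter under a peak, and Gm13218, a long intergenic non-coding RNA, was the gene overlapped there besides Gata3 itself.

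The sequences on which the results turn are shown first, read from GRCm38.p6 (the mm10 assembly). They are the promoter, the distal region with the highest mean level, 2 regions of the far downstream stretch, 2 regions called only in Th2, 1 called only in Th17, and 1 whose centre is a simple repeat. The promoter is the 250 bp before the start in the RefSeq table of that build, chr2:9878601-9878850 on the minus strand. The others are the central 300 bp of a region on the plus strand, because broad peaks carry no summit and the centre is a fixed choice. They lie at chr2:9681691-9681990, chr2:9587343-9587642, chr2:9564438-9564737, chr2:9860497-9860796, chr2:9816110-9816409, chr2:9764562-9764861 and chr2:9992499-9992798, in the order printed. Capitals mark matches, on either strand, to 4 words: AGATAA for GATA factors, TTC and GAA with 3 or with 4 bases between them for STAT factors, and TGANTCA for AP-1.
Gata3 upstream: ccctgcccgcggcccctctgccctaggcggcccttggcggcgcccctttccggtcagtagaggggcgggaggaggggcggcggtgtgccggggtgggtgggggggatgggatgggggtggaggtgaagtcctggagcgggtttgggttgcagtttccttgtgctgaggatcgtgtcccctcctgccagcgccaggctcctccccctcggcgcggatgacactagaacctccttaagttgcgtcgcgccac
Shared, 196.3 kb downstream: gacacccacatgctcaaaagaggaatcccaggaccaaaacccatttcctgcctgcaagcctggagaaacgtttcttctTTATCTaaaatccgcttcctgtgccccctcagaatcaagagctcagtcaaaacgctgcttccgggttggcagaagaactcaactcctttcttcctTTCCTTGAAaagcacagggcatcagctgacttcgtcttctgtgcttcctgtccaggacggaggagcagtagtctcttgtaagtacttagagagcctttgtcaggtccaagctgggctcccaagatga
Shared, 289.7 kb downstream: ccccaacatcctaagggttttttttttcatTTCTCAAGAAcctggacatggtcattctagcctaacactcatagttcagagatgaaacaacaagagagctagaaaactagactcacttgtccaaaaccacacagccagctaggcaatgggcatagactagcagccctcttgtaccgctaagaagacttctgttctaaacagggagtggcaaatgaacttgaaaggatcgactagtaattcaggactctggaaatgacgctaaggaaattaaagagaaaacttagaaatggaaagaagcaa
Th9 and Th2, 313.6 kb downstream: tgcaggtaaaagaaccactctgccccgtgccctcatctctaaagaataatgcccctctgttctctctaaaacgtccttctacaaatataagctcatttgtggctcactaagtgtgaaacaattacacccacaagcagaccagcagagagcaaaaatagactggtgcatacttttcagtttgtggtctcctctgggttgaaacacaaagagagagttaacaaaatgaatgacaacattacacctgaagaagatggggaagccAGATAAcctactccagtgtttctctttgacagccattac
Th2 only, intron 5 of Gata3: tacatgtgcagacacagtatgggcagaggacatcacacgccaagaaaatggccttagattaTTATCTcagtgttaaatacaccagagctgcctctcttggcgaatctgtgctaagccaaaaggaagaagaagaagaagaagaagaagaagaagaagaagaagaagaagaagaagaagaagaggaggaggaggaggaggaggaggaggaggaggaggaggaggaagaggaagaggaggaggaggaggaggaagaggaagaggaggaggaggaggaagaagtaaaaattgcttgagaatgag
Th2 only, 62.2 kb downstream: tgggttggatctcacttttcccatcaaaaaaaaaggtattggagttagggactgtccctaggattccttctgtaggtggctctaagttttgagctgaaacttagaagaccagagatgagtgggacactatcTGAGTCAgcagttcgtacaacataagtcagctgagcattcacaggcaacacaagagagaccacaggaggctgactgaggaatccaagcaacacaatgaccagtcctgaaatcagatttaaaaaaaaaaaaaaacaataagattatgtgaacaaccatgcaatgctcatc
Th17 only, 113.7 kb downstream: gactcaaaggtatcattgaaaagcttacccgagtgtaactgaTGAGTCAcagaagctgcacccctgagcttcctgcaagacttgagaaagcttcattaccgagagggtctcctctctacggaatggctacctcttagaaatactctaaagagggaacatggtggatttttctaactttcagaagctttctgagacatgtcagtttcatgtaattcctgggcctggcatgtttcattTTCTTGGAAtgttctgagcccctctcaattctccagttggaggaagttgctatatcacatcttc
Shared, 113.6 kb upstream, in Taf3: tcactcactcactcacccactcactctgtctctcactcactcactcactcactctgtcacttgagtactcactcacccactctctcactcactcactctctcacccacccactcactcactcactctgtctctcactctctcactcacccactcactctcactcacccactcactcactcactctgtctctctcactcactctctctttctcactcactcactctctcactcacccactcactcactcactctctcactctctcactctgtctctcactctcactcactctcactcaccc

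The lists held 100317 to 142213 peaks, and 38, 42, 49, 57, 48 and 45 of them lay in the Gata3 window in Th9 replicates 1 and 3, Th2 replicates 1 and 3 and Th17 replicates 1 and 3, the order used throughout. The means were 40.0 ± 2.83 in Th9, 53.0 ± 5.66 in Th2 and 46.5 ± 2.12 in Th17 (SD, n = 2 each), and the groups did not overlap in these raw counts. Per 1000 peaks of the list the window held 0.267, 0.415, 0.345, 0.474, 0.378 and 0.449, and the 3 subsets overlapped. The peaks covered 26.0, 35.9, 48.2, 59.4, 34.5 and 39.6 kb of the window, and both Th2 libraries were above the other 4. As a share of the length of the whole list the window held 0.0256, 0.0445, 0.0411, 0.0549, 0.0359 and 0.0433%, and here Th2 replicate 1 lay below Th9 replicate 3 and Th17 replicate 3. The lists were not equally sensitive: the lowest fold enrichment in a list, where fold is the pileup over the library's background, was 2.11 in Th9 replicate 1 and 1.71 to 1.83 in the other 5. The background pileup that ties a fold to its p-value in each list ran from 5.65 fragments per base in Th9 replicate 1 to 11.2 to 17.7 in the other 5, which is the only sign of depth the lists keep. Of 6 T cell markers, 5 had a promoter peak in all 6 libraries. None of 4 B cell or 4 myeloid markers had one in all 6, and 3 and 2 of them had none in any.

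**Figure D1:**
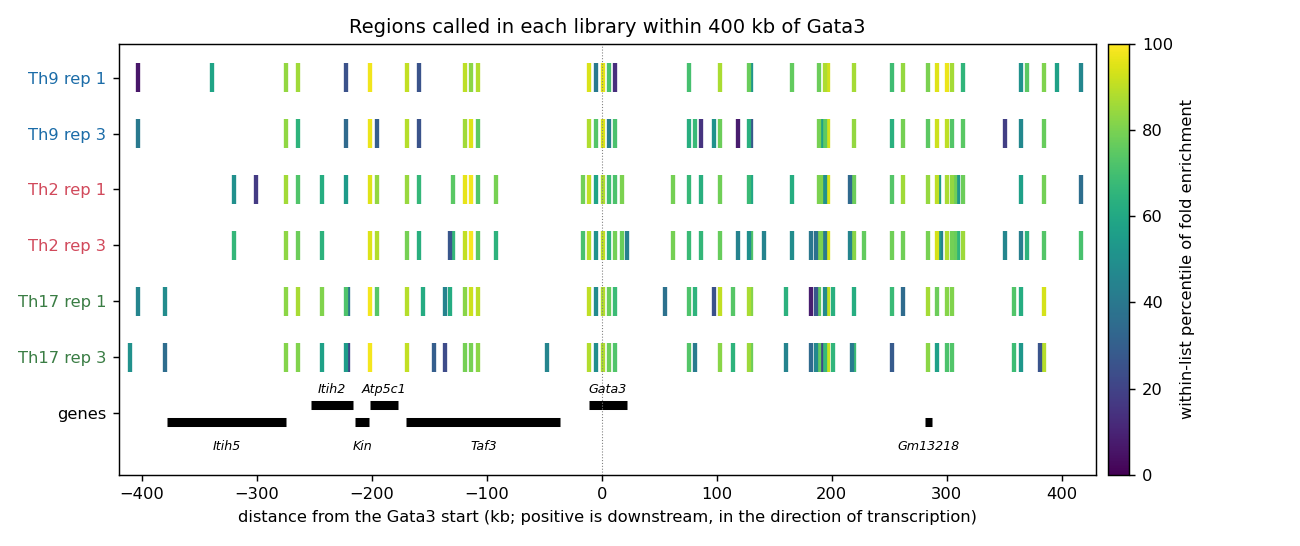
Regions called in each of the 6 libraries (rows) by distance from the Gata3 start in kb, positive values being downstream, with each mark coloured by its within-list percentile and gene spans drawn at the foot. Marks crowd between 282.2 and 313.6 kb downstream in the Th2 rows, where 8 and 9 regions were called against 5 and 5 for Th9 and 4 and 4 for Th17.

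The Gata3 promoter was open in every library. Its region, chr2:9874511-9880122, covered 5612 bp from the proximal promoter through introns 1 and 2 into exon 3, and it also holds the promoter of the antisense transcript Gm13256. Its level is given as the percentile of its highest peak's fold among all peaks of the same list, so that 95 means a fold above that of 95% of the list. The percentiles were 95.6 and 93.8 for Th9, 87.7 and 90.0 for Th2, and 88.3 and 87.8 for Th17. Both Th9 libraries were above the other 4, and the Th2 and Th17 libraries overlapped. The mean over Th9 and Th2, the cultures given IL-4, was 3.72 points above that of Th17, against a pooled SD within subsets of 1.19, while Th2 alone was 0.79 above Th17. This sign did not hold when the percentiles of all peaks of the joined region were averaged by length, where the difference was −3.32. That alternative was added after the values were seen, and it averages percentiles and not folds. No permutation of 4 libraries against 2 could reach a p under 0.05. In limma, fitted over the 50493 regions called in all 6 libraries with Benjamini-Hochberg adjustment, the promoter was 6.65 ± 1.98 (SE) points higher in Th9 than in Th17 with an adjusted p of 0.200. Against Th2 it was 5.86 ± 1.98 points higher in Th9, with an adjusted p of 0.375, and Th2 differed from Th17 by 0.79 ± 1.98 with 0.964.

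The accessible stretch at the promoter was not cut into peaks in the same way in every library. In Th9 replicates 1 and 3 and in Th2 replicate 3 the accessible stretch was called as 2 peaks, a weaker one of 861, 1226 and 1795 bp over intron 2, reaching exon 3 in the last, and a stronger one of 2505, 2647 and 2782 bp over the start. The stronger peak had folds of 8.27, 8.72 and 6.13 in those 3 libraries. In Th2 replicate 1 and both Th17 libraries the same stretch was called as a single peak of 5398, 4210 and 4313 bp, with folds of 4.55, 4.71 and 4.54. A broad peak's fold is a mean over its length, and the 3 libraries with 2 peaks were the 3 highest in percentile. Both Th9 libraries had 2 peaks and both Th17 libraries a single one, so cut and subset cannot be told apart there. Whether the cut bears on the level was not tested. When the percentile was instead averaged over a library's peaks by their length, it was 87.2 and 88.6 (Th9), 87.7 and 75.4 (Th2) and 88.3 and 87.8 (Th17). The difference of Th9 from Th17 over this region then became −0.12, with a limma adjusted p of 0.998. This averages percentiles and not folds. The weaker peaks in Th9 replicates 1 and 3 and Th2 replicate 3 had folds of 2.75, 3.61 and 2.46. Their percentiles were 63.0, 77.4 and 52.7. Folds averaged by length were not compared.

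Within the gene, 5 further regions were called, and 1 of them set Th2 apart. A region in intron 5, 17.3 kb downstream at chr2:9859996-9861297, was called at percentiles of 80.2 and 77.0 in the 2 Th2 libraries, with folds of 3.51 and 3.79, and in no Th9 or Th17 library. Its centre, printed above, holds 1 GATA word beside a run of GAA and GAG repeats, and 58.3% of it is masked as repeat in the assembly. The region in intron 4, 10.6 kb downstream, was called everywhere, at 13.4 and 71.4 for Th9, 71.9 and 78.9 for Th2 and 68.1 and 72.4 for Th17, so Th9 replicate 1 stood far below the other 5. The region in intron 3, 4.9 kb downstream, gave 70.8 and 42.3, 69.3 and 64.5, and 77.3 and 77.7, with both Th17 libraries highest. Neither differed between any pair of subsets in limma, where adjusted p-values ran from 0.518 to 0.977.

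On the 5′ side of the principal start, the region 10.3 kb upstream, chr2:9888943-9891094, holds 2 of the 6 Gata3 transcript starts of the full annotation, which were not used to set promoters. It was among the most open regions of the window, at 94.2 and 88.2 for Th9, 90.9 and 88.7 for Th2 and 90.3 and 88.7 for Th17, and the 3 subsets overlapped. The region 3.1 kb upstream lies over the promoters of the transcripts 4930412O13Rik and 9230102O04Rik and had lower values, 40.7 and 73.3, 58.4 and 50.9, and 47.7 and 49.2. Across the 6 regions of the gene span, peaks covered 5876 and 8453 bp for Th9, 13084 and 14709 bp for Th2 and 10202 and 11049 bp for Th17, and the 3 subsets did not overlap in raw length. The whole lists covered 101.8 and 80.7 Mb for Th9, 117.5 and 108.2 Mb for Th2 and 96.0 and 91.5 Mb for Th17. The Th2 lists were thus the longest. Scaled to the length of its list, the gene span of Th2 replicate 1 fell below that of Th17 replicate 3, so the raw order did not hold. The gene was chosen for description and this sum was added after the data had been seen, so no test is given.

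**Figure D2:**
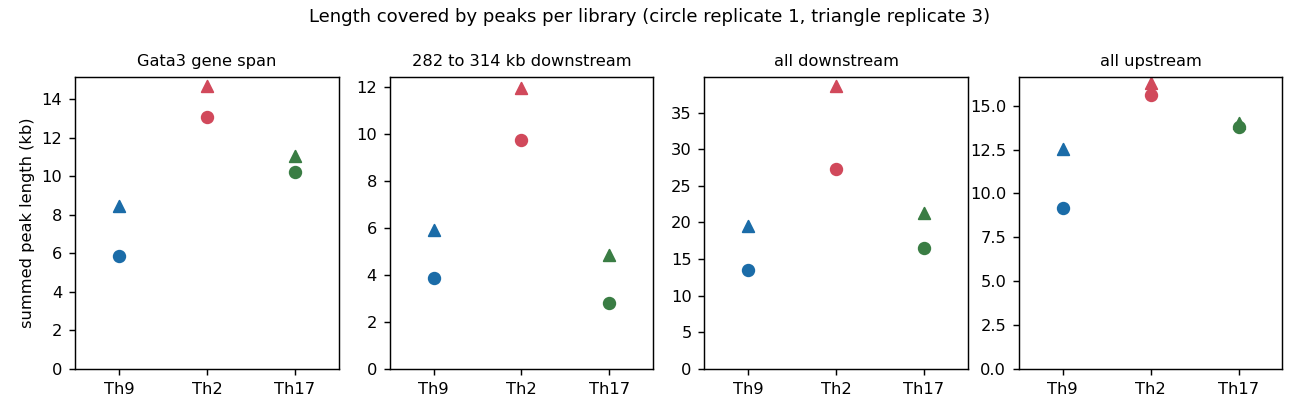
Summed length of peaks in kb per library (circle replicate 1, triangle replicate 3) for the Gata3 gene span, the stretch 282.2 to 313.6 kb downstream, and all regions downstream and upstream of the start. Both Th2 libraries lie above the other 4 in each panel, with Th17 between Th2 and Th9 in the gene span and upstream, and with Th9 and Th17 interleaved in the far downstream stretch. The lengths are not scaled to the whole lists, which covered 117.5 and 108.2 Mb in Th2 and 80.7 to 101.8 Mb in the other 4.

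All 6 libraries called 27 of the 77 regions (35.1%, where the share over all regions was 21.4%). A further 10 were called in both Th2 libraries and no other (13.0%, series share 2.87%), and 7 in both Th17 libraries and no other (9.09%, series share 1.7%). Both Th9 and both Th2 libraries shared 2 regions that Th17 lacked (2.6%, series share 2%), and both Th2 and both Th17 shared 1 that Th9 lacked (1.3%, series share 1.55%). No region was called in both Th9 libraries alone (series share 1.31%) or in both Th9 and both Th17 libraries alone (series share 0.296%). The remaining 30 were uneven within a subset, 16 of them called in several libraries (20.8%, series share 31.7%) and 14 in a single one (18.2%, series share 37.2%), of which Th17 replicate 3 gave 5 and Th2 replicate 3 gave 4. Set beside windows of the same rule around 21951 protein-coding genes, the number of regions at Gata3 was ordinary, 77 with a median of 74. The number called in Th2 alone was reached by 508 genes (2.31%, median 2) and the number in Th17 alone by 234 (1.07%, median 1). Windows of neighbouring genes overlap, so these shares are a description.

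**Figure D3:**
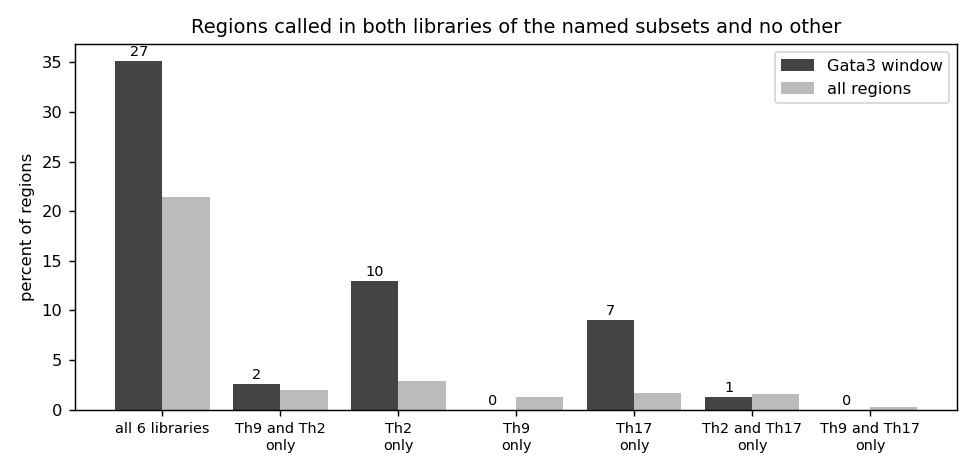
Percent of regions with each calling pattern, for the 77 regions of the Gata3 window (dark bars, with the count above) and all 236017 regions (light bars). The share called in Th2 alone is 13.0% at Gata3 and 2.87% over all regions, and for Th17 alone 9.09% and 1.7%.

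The 10 regions of Th2 alone lay on both sides of the gene. On the downstream side, besides that in intron 5, they stood at 62.2 kb with percentiles of 79.2 and 79.2, at 215.5 kb with 33.7 and 45.1, at 293.1 kb with 55.8 and 53.9, at 306.7 kb with 78.0 and 77.2, and at 309.1 kb with 52.2 and 65.1. On the upstream side a region between Gata3 and Taf3, at 15.8 kb, had 78.7 and 70.8, and 2 regions inside Taf3, at 91.5 and 129.5 kb, had 79.6 and 64.2 and 74.4 and 66.5. The last, inside Itih5 at 319.7 kb, had 49.7 and 66.1. Folds ran from 2.04 to 4.03, and in 9 of the 10 both Th2 folds were above the lowest fold of every list that lacked the region, the exception being that at 215.5 kb. At 293.1, 309.1 and 319.7 kb the lower Th2 fold was only 1.054 to 1.105 times the lowest fold of Th9 replicate 1. The absence of Th9 and Th17 peaks at the 10 is how they were chosen, so it is not a result.

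The 7 regions of Th17 alone had folds of 1.86 to 2.97. Downstream they stood at 113.7 kb with percentiles of 73.6 and 64.7, at 160.2 kb with 63.8 and 44.8, at 201.1 kb with 63.2 and 65.3, and at 358.3 kb with 72.8 and 68.7. Upstream they stood inside Taf3 at 136.4 kb with 44.9 and 22.7, inside Itih2 at 220.2 kb with 39.3 and 21.0, and beyond Itih5 at 379.6 kb with 48.1 and 35.3. In 3 of the 7, those at 113.7, 201.1 and 358.3 kb downstream, both folds were above the lowest fold of every list that lacked the region. For the other 4 the lowest fold of Th9 replicate 1 was higher than at least 1 of the Th17 folds, so that list could have missed an equal signal.

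The 2 regions of Th9 and Th2 together differed in level between the subsets. The one 313.6 kb downstream had 65.4 and 74.3 for Th9 and 77.7 and 85.5 for Th2, with folds of 2.82 to 5.01, and both Th2 libraries were above both Th9 libraries. The one 158.1 kb upstream, inside Taf3, had 25.5 and 25.5 for Th9 and 66.6 and 63.2 for Th2, and its centre held 3 GATA words. The region of Th2 and Th17 together lay in Itih2, 243.3 kb upstream, at 62.0 and 64.4 for Th2 and 81.2 and 57.1 for Th17.

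**Figure D4:**
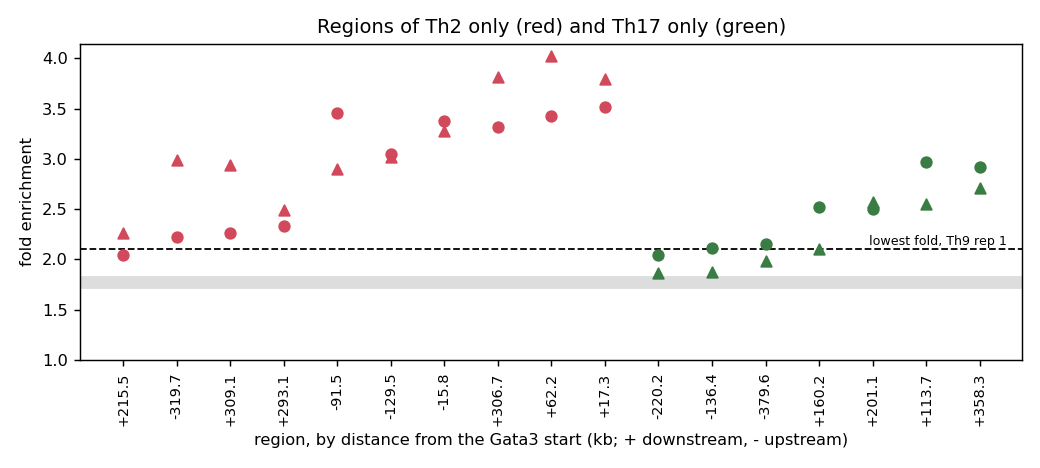
Fold enrichment of the 10 regions called in Th2 alone (red) and the 7 called in Th17 alone (green), each in its 2 libraries (circle replicate 1, triangle replicate 3), by distance from the Gata3 start. The dashed line is the lowest fold of the Th9 replicate 1 list, 2.11, and the grey band spans the lowest folds of the other 5 lists, 1.71 to 1.83.

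A stretch far downstream of the gene gathered several of these regions. Between 282.2 and 313.6 kb downstream lay 9 regions, a grouping made after the data were seen, of which 4 were called in all 6 libraries, 3 in Th2 alone, 1 in Th9 and Th2 and 1 for Th2 replicate 3 alone. Peaks there covered 3858 and 5914 bp for Th9, 9750 and 11958 bp for Th2 and 2801 and 4860 bp for Th17. In this raw length, not scaled to the lists, both Th2 libraries were above the other 4 and Th9 and Th17 overlapped. Inside it the region 289.7 kb downstream stood at 95.1 and 92.4 for Th9, 90.2 and 93.7 for Th2, and 77.4 and 56.9 for Th17. Its peak was 1409 and 1736 bp long in Th9, 2068 and 2372 bp for Th2, and 528 and 523 bp for Th17. The region 298.6 kb downstream stood at 96.9 and 89.9, 87.2 and 88.1, and 81.8 and 71.7, with lengths of 1004 and 2937, 3302 and 3341, and 915 and 393 bp. In both, the 4 libraries of the cultures given IL-4 were above both Th17 libraries in level, and longer. The region over Gm13218, at 282.2 kb, did not share that order, at 79.8 and 74.6, 84.4 and 79.5, and 86.5 and 82.4. Farther from this stretch, at 260.7 kb, a region was called at 84.4, 79.2, 85.6 and 78.3 for Th9 and Th2, at 34.6 in Th17 replicate 1 and not in Th17 replicate 3.

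Among the 27 regions called in all 6 libraries, limma called none different between Th9 and Th17, where the share over the genome was 0.242%. None was called between Th2 and Th17 (genome 0.757%) or between Th9 and Th2 (genome 0%). At an unadjusted p under 0.05 there were 6, 8 and 5 in the 3 comparisons (22.2, 29.6 and 18.5% of the 27, where the shares over the genome were 11.9, 12 and 10.2%), and the lowest adjusted p-values were 0.109, 0.099 and 0.354. In each comparison 14 regions were higher in the first subset and 13 lower. The comparisons share libraries, so they are not independent of each other. Values were also simulated for the same number of regions, as normal noise around each region's mean and not held to the range of percentiles. A shift between Th9 and Th17 was recovered for 15 of 100 regions moved by 10 points and 39 of 100 moved by 40. Most simulated shifts of either size thus went uncalled. Real percentiles are bounded, so these rates do not give the power for regions near the top of the lists.

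The region 289.7 kb downstream was 26.6 ± 6.06 (SE) points higher in Th9 than in Th17, with a limma adjusted p of 0.109, and 24.8 ± 6.06 higher in Th2, with 0.100. That 298.6 kb downstream was 16.7 ± 4.23 points higher in Th9 than in Th17 with an adjusted p of 0.140. A Taf3 intron region 118.9 kb upstream stood at 89.9 and 85.7 for Th9, 96.4 and 90.8 for Th2 and 82.4 and 79.0 for Th17. The difference of Th2 from Th17 there was 12.9 ± 3.24 points with an adjusted p of 0.108. The region over the divergent promoters of Atp5c1 and Kin, 201.1 kb upstream, was 3.45 ± 0.84 points lower in Th2 than in Th17, at 94.9 and 94.6 against 98.3 and 98.1, with 0.099. The region 251.7 kb downstream differed more, by 27.8 ± 13.3 points for Th2 over Th17, but its Th17 libraries stood at 67.6 and 28.2 and the adjusted p was 0.463.

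Other shared regions leaned toward Th17. The region 384.2 kb downstream stood at 80.5 and 76.8 for Th9, 78.5 and 73.3 for Th2 and 93.4 and 88.7 for Th17. A pair of neighbours at 129.8 and 127.3 kb downstream stood at 52.0 and 26.6, 59.1 and 72.5, and 81.5 and 77.7, and at 77.1 and 63.4, 67.7 and 49.4, and 87.1 and 85.5. In all 3 both Th17 libraries were above the other 4. Their limma adjusted p-values against Th17 were 0.348 and 0.217 for the first, 0.197 and 0.803 for the second, and 0.572 and 0.242 for the third, for Th9 and Th2 in turn. Besides the promoter and the region 298.6 kb downstream, 2 shared regions had both Th9 libraries above the other 4. The region 219.2 kb downstream stood at 86.5 and 83.8 (Th9), 77.4 and 82.4 (Th2) and 62.1 and 68.4 (Th17), and was 19.9 ± 6.64 points higher in Th9 than in Th17 with an adjusted p of 0.254. The region 194.0 kb downstream stood at 87.8 and 75.0 against 50.1 and 40.8 for Th2 and 47.4 and 67.1 for Th17. Its difference of Th9 from Th2 was 36.0 ± 11.5 points with an adjusted p of 0.361.

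Counted over the 27 shared regions, both Th9 percentiles were above both Th17 percentiles in 9 (genome 21.3%) and below them in 8 (genome 18%). Both Th2 percentiles were above both of Th17 in 10 (genome 25.2%) and below in 10 (genome 18.6%). Th9 was above Th2 in 7 (genome 17.5%) and below in 7 (genome 21.9%). The shared regions thus leaned in both directions in each comparison, in nearly equal numbers.

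**Figure D5:**
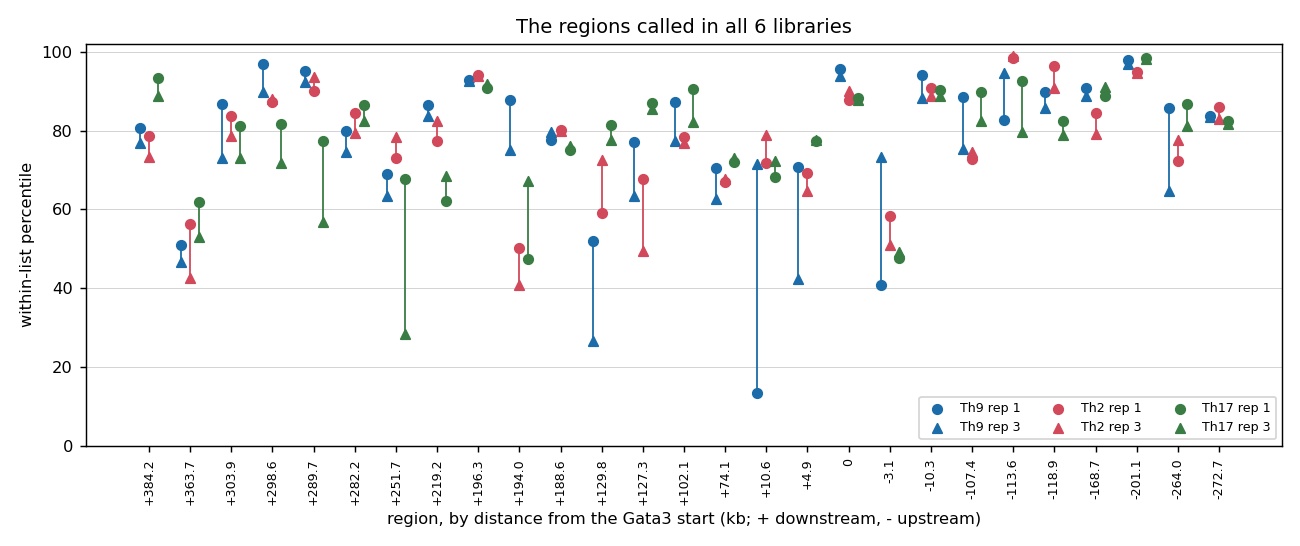
Within-list percentile of the 27 regions called in all 6 libraries, ordered by distance from the Gata3 start in kb, with the 2 libraries of each subset joined by a line. At 289.7 kb downstream the Th17 libraries lie at 77.4 and 56.9 below the other 4, and at 384.2 kb downstream they lie above them at 93.4 and 88.7.

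By mean percentile, the 5 most open distal regions shared by all libraries stood 196.3 kb downstream (92.7), 113.6 kb upstream (91.1), 10.3 kb upstream (90.2), 118.9 kb upstream (87.4) and 298.6 kb downstream (85.9). That 10.3 kb upstream holds 2 Gata3 starts of the full annotation. The first varied least of the 5, at 92.9 and 92.6 for Th9, 94.1 and 94.0 for Th2 and 90.7 and 91.8 for Th17, and its centre held 1 GATA word and 1 STAT word. The second, in an intron of Taf3, reached 98.4 and 99.0 for Th2 against 82.7 and 94.5 for Th9 and 92.5 and 79.6 for Th17. Its central 300 bp, printed last above, is a run of short CACT-like repeats with 43 distinct 6-base words of a possible 295, and 98% of it is masked as repeat. The median over the window was 275 distinct words and over the genome 273. Fewer than 150 distinct words were found in 8 of the 77 regions (10.4%) and in 5.4% of all regions, among the 8 the Th2-only region at 309.1 kb with 89 and a shared region at 102.1 kb downstream with 51. Whether repeats bear on the level of these regions was not tested.

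The words were counted over the central 300 bp of every region. AGATAA was found in 15 of the 77 regions (19.5%), where its share over 236009 regions was 12.3% and over 32851 RefSeq promoters 11.2%. TGANTCA was found in 17 (22.1%), against 11.7% of regions and 7.81% of promoters. The STAT words with 3 and with 4 bases between were found in 9 each (11.7%), against 8.64 and 6.52% of regions and 8.3 and 6.95% of promoters. Of the 10 regions of Th2 alone, 4 held the AP-1 word and 2 the GATA word, where 23.4% and 19.9% of such regions over the genome did. Of the 7 of Th17 alone, 2 and 1 did, with 14.9% and 12.7% over the genome, and of the 27 shared regions, 3 and 3 did, with 10.6% and 10.1%. The STAT words with 3 and with 4 bases between were found in 1 and 0 regions of Th2 alone (genome 9.72 and 8.85%), in 2 and 1 of Th17 alone (9.03 and 6.09%) and in 4 and 5 of the shared regions (8.35 and 6.12%). The printed Th2-only region at 62.2 kb and the Th17-only region at 113.7 kb both carry the AP-1 word, and the 250 bp before the Gata3 start carry none of the 4.

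Promoters most like that of Gata3 were found by the Euclidean distance between the 6 percentiles, over named genes with a promoter peak in all 6 libraries, those with only a clone or Gm name left out. The nearest were Klhl25 at 2.17, Ddx23 at 2.87, Rrm2 at 2.93, Dlg4 at 3.32 and Rnf216 at 3.54. All had both Th9 values highest, as Gata3 did, an order that a choice by these same percentiles favours. Of 26 genes of the IL-4, STAT6 and GATA3 pathway and its partners, 19 had a promoter peak in all 6 libraries, as Gata3 did (73.1%, where the share over 21924 protein-coding genes was 58.7%). Among the 19, limma called Ccr8, a chemokine receptor of Th2 cells, against Th17 and no other, and none between Th9 and Th2. Its promoter was 39.4 ± 5.32 (SE) points higher in Th9 than in Th17 with an adjusted p of 0.0382, and 40.1 ± 5.32 higher in Th2 with 0.0241. Both calls were lost without a variance trend (0.104 and 0.101) and without any 1 of the Th9 or Th2 libraries (0.0664 to 0.165 and 0.0523 to 0.322), and that for Th9 also with length-weighted percentiles (0.104). The promoters of Il4, Il10, Tbx21 and Gata2 had a peak in both Th9 and both Th2 libraries and in neither Th17 library. These 4 were not equally open. Tbx21 stood at 43.9 and 15.3 for Th9, and near the foot of the Th2 lists at 3.63 and 4.73. Il10 ran from 40.95 to 49.26 and Gata2 from 48.96 to 67.24 over the 4 libraries. Whether the Th17 lists missed equally weak peaks was not tested, and no share over other promoters is given for this pattern. The Il13 promoter had a peak in Th2 alone. The Il4 promoter, that of the cytokine GATA3 is known to control, stood at 89.5 and 92.3 for Th9 and 87.8 and 88.3 for Th2. The Gata3 promoter thus was called in Th17 libraries that had no peak at the Il4 promoter.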

How the data were processed

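ATAC-seq broad peak lists of 6 libraries were analysed, 2 for each of 3 subsets, grouped by their labels. The authors trimmed reads with Trim Galore 0.4.3, aligned them with Bowtie2 to mm10, removed duplicates with Picard and called broad peaks per library with MACS2 2.1.0, without an input control. The deposited lists give each peak a fold enrichment (a ratio to the library's background), a −log10 p and −log10 q, and a score that was not used. No read counts were used, so the precision of a single value is unknown and replicates give the only error.

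Fold was turned into a percentile within its list, and a region took its highest peak. Differences were fitted with limma 3.58.1 (R 4.3.3) with a variance trend, over the 50493 regions called in all libraries, with a Benjamini-Hochberg threshold of 0.05. The fit was tested on simulated data. Annotation was GENCODE M21, whose coordinates are on GRCm38. Named regions were those over the Gata3 promoter or body, those of 1 or 2 subsets only, those past the threshold and the 5 highest shared distal regions; shared regions with the lowest p or a one-sided order were named after their values were seen. The members, gene lists, words and alternatives were chosen with earlier results of these data known.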

Additional observations from a re-analysis of the deposited data

How the results depend on the processing

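Of 77 regions, 25 were left at a fold of at least 4. The 27 called in all libraries became 17 at a −log10 q of at least 5, 5 at a fold of at least 4, and 10 when a library had to cover 50% of a region. Regions of Th2 alone (10) fell to 0 at a fold of at least 4 and ranged from 10 to 14 without 1 library. Those of Th17 alone (7) became 3 at −log10 q 5, 2 at fold 4, 3 at fold 2.2 and 4 at 50% coverage, and ranged from 7 to 12, the highest without Th17 replicate 1. Those of Th9 and Th2 (2) became 1, 4 and 1 under the q, fold 4 and 50% limits and 1 in lists of equal length, with 2 to 4 without 1 library, the highest without Th9 replicate 3. Those of Th2 and Th17 (1) became 0 at fold 4 and 3 at 50%, with 1 to 3, the highest without Th2 replicate 1. Those of Th9 alone (0) became 1 at 50% and ranged from 0 to 2, the highest without Th9 replicate 3, and those of Th9 and Th17 ranged from 0 to 1.

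With the replicate block, limma called 2, 3 and 0 of the 27 window regions for Th9 against Th17, Th2 against Th17 and Th9 against Th2. They were those 289.7 and 298.6 kb downstream for Th9, with adjusted p-values of 0.0302 and 0.0355, and those 289.7 kb downstream, 118.9 kb upstream and 201.1 kb upstream for Th2, with 0.0288, 0.0222 and 0.0482. Over the genome the calls against Th17 rose from 122 to 1301 (2.58%) and from 382 to 1929 (3.82%), with 0% for Th9 against Th2. Same-numbered libraries deviated together with correlations of 0.168, 0.0313 and −0.0098, so the numbers are not shown to pair them. With uncalled libraries set to 0 the window calls were 7, 19 and 11 of 58 regions (6.86, 10.3 and 5.17% over the genome), and with quantile-normalized log2 folds 5, 6 and 2 of 27 (6.01, 7.44 and 3.19%). Without Th17 replicate 1, which leaves 1 Th17 library, the region 289.7 kb downstream was 36.9 points higher in Th9 and 35.1 points higher in Th2 than in Th17. The promoter difference of 3.72 became 6.84 at −log10 q 5 and 32.1 at fold 4. Both settings rank percentiles anew within shorter lists, so their scale differs from that of 3.72. At fold 4 the Th17 promoter percentiles were 24.3 and 19.5, where the full lists gave 88.3 and 87.8. The difference was −3.32, and thus reversed, with length-weighted mean percentiles over the whole joined region (chosen after seeing the data). It was 2.45 to 5.08 without 1 library, the ends being without Th9 replicate 1 and Th2 replicate 1. Of 224 alternative values for 19 single-region comparisons, 204 kept direction and call, 19 newly passed the threshold and 1 changed sign, that of the promoter for Th9 against Th17, at −0.12 with length-weighted means. The cause was not tested, beyond the peak lengths given for the promoter. The 19 comparisons were those with an unadjusted limma p under 0.05 in the main fit. Several alternatives, such as the replicate block and the fit without a variance trend, leave each difference as it was. A kept direction was thus in part fixed in advance. The counts also include fits that leave 1 library in a subset.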

Other observations

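Peaks beyond the window were looked at after the data had been seen. Between 400 and 1000 kb downstream of Gata3 lay 30 regions, of which 7 were called in all 6 libraries, 3 in Th2 alone, 2 in Th9 and Th2 and 0 in Th17 alone. On the upstream side of the same width lay 23 regions, with 5, 1, 0 and 4 of these patterns. Over all regions of the genome the 4 patterns had shares of 21.4, 2.87, 2 and 1.7%, and the flanks were not set beside windows of other genes. One downstream region, at chr2:9377885-9378642 and 500.0 kb from the start, was called at percentiles of 91.4 and 91.7 in Th9 and 85.3 and 93.5 in Th2, and in neither Th17 library. The other downstream region of that pattern, at 510.2 kb, stood at 72.0 and 52.3 in Th9 and 56.5 and 52.7 in Th2.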
